A study of Mus musculus with 4 samples.

Results

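The 8 adipogenic transcription factors Pparg, Cebpa, Cebpb, Cebpd, Zfp423, Ebf1, Ebf2 and Klf15 were followed across the cell classes of aged mouse gonadal white adipose tissue. They were chosen by symbol and matched 8 of the 31054 features of the deposited gene table. The cells were stromal vascular cells of male p16-CreERT2/R26-LSL-tdTomato mice aged 18 months, in which tamoxifen lets a Cre recombinase driven by the p16 (Cdkn2a) gene switch on the red reporter tdTomato (Tom). Cells were sorted by the leukocyte surface protein CD45 and by Tom into 4 libraries of 10x Genomics 3′ single-cell RNA-seq, 1 for each combination (labelled CD45- with Tom+, CD45- with Tom-, then CD45+ with Tom+ and with Tom-, the order used throughout). All 4 share genotype, age and tamoxifen, the number of mice behind each was not given in the sources used here, and no group has a replicate library. The comparison of interest was how the adipogenic program of progenitors sorted by the p16 reporter compared with that of the others, beside the same genes in macrophages and further classes.

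Adipogenesis is driven by a cascade of transcription factors. Cebpb and Cebpd act early and switch on Pparg and Cebpa, which then hold each other on and activate the genes of lipid uptake and storage. Zfp423, Ebf1 and Ebf2 act in committed preadipocytes upstream of or together with Pparg, and Klf15 rises late and promotes lipid and glucose metabolism genes. Adipose progenitor cells (APC) are not uniform: Pi16/Dpp4 cells are regarded as early multipotent progenitors, whereas Fgf10/Enpp6/Mrap cells are regarded as preadipocytes closer to the adipocyte. Several of these factors also work outside fat, Cebpa and Cebpb in myeloid cells, Pparg in macrophages and endothelium, and Ebf1 in B cells.

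The libraries held 64083756 to 139397501 unique molecular identifiers (UMIs, counted RNA molecules). After filtering on genes and mitochondrial UMIs and removal of doublets, 13878 cells remained (3886, 3674, 1927 and 4391 per library), with median UMIs per cell between 18331 and 19516. Leukocytes and stroma were not parted by the CD45 labels. APC-like cells made up 8.70%, 41.9%, 6.80% and 39.2% of the libraries, and macrophage-like cells 15.6% to 21.6%. Pairs of libraries shared 26 to 4394 deposited barcodes, the most between CD45- Tom- and CD45+ Tom-, and 1 to 16 kept barcodes. Between 7 and 42 kept barcodes per library had more UMIs in another library. APC-like cells carried tdTomato at 569, 9.39, 561 and 10.8 CPM (the UMIs of a gene summed over the cells of a class in 1 library and scaled to 1000000 UMIs) and Cdkn2a, the gene that drives the reporter, at 4.83, 5.71, 5.66 and 6.41 CPM, which was no higher in the Tom+ libraries. By quantitative PCR on sorted progenitors of old mice, the paper reported more p16 RNA in Tom+ than in Tom- cells.

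Positions are given in the GRCm38 (mm10) build that the files use. Pparg spans chr6:115360951-115490399 (+ strand) and Klf15 chr6:90462576-90475238 (+). Cebpa spans chr7:35119293-35121928 (+), Cebpb chr2:167688915-167690418 (+) and Cebpd chr16:15887286-15891031 (+). Zfp423 spans chr8:87661810-87959595 (-), Ebf1 chr11:44617317-45008091 (+) and Ebf2 chr14:67233292-67430918 (+). All 8 are annotated as protein coding.

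Pparg and Cebpa, the pair at the centre of the cascade, are shown with their promoters because both rise together between progenitor subsets below. RefSeq (GRCm38.p6) gave 10 transcription starts for 6 of the 8 genes, and none was at hand for Cebpd or Ebf2. The 250 bases before the third Pparg start, chr6:115421816-115422065 (+), and before the Cebpa start, chr7:35119043-35119292 (+), are given 5′ to 3′, with capitals marking matches to the C/EBP motif TTGCNNAA or to TATAAA on either strand.
Pparg: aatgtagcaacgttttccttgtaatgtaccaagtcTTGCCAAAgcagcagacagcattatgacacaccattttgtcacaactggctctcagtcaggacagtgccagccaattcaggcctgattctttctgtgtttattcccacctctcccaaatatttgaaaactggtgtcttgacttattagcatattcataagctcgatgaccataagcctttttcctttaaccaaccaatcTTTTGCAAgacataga
Cebpa: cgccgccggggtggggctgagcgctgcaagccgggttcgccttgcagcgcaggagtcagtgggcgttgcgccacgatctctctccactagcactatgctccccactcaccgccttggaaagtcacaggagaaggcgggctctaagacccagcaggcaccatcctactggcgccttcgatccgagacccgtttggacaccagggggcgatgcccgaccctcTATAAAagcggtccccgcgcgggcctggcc
In the Pparg window the C/EBP motif matched at 215 to 208 and at 16 to 9 bases before the start. It was found in 2 of the 10 windows of the 8 genes (the other in Zfp423) and in 9.56% of all 32851 RefSeq windows of this length. TATAAA was found in 2 of the 10 windows and in 12.4% of all windows. The consensus EBF palindrome (in 0.779% of all windows) and the DR1 direct repeat of PPAR (in 0.0335%) had no exact match in the 10. These matches describe letters only, and 3′ counts do not tell which of the Pparg starts was used.

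APC-like cells (3730 in all, with Pdgfra, Dcn, Col1a1, Col3a1, Lum and Pdgfrb raised) fell into named subsets by markers. The Pi16/Dpp4 subset held 16, 125, 4 and 139 cells, the Fgf10/Enpp6/Mrap subset 122, 586, 45 and 678, and the Il6/Ptx3 subset 24, 189, 13 and 187. The Il6/Ptx3 subset also raised 3 markers of the Fgf10/Enpp6/Mrap subset. The 8 factors and the pathway genes named here were kept out of the genes used for clustering.

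Pparg, the master regulator of fat cell formation, was nearly absent from the Pi16/Dpp4 subset and well detected in the Fgf10/Enpp6/Mrap subset. In Pi16/Dpp4 cells its level was 0, 3.43 and 1.61 CPM in the 3 libraries with at least 10 such cells, from 0, 11 and 6 UMIs (a count of 0 allowed up to 7.55 CPM, the floor of 3 counts, in the library labelled CD45- Tom+). In Fgf10/Enpp6/Mrap cells it was 33.2, 32.5, 25.8 and 32.5 CPM, and in Il6/Ptx3 cells 21.6, 17.7, 13.5 and 19.2 CPM. All libraries of the Fgf10/Enpp6/Mrap subset lay above those of the Il6/Ptx3 subset, and both above those of the Pi16/Dpp4 subset. A Pparg UMI was present in 44.4% to 51.5% of Fgf10/Enpp6/Mrap cells and in 0% to 7.20% of Pi16/Dpp4 cells. With every cell thinned to 2000 UMIs the shares were 6.66% to 11.1% and 0% to 1.6%, beside 0% to 0.512% in mesothelial-like cells, where Pparg was at 0.948 CPM at most.

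**Figure D1:**
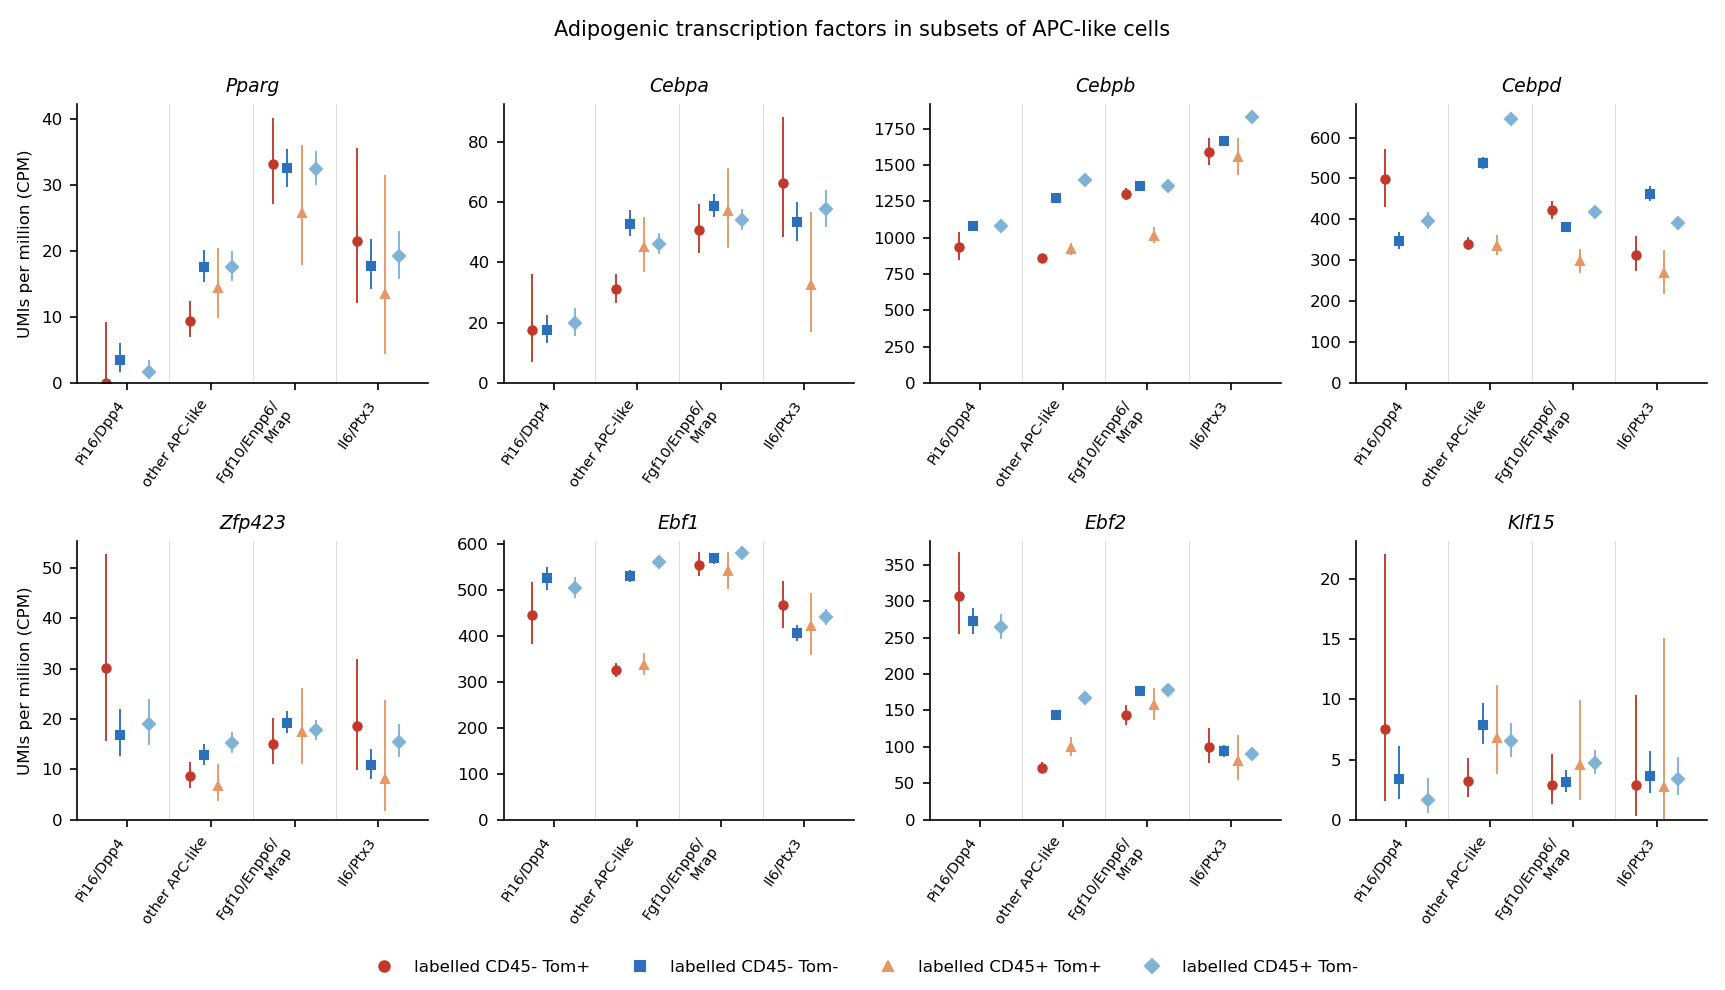
CPM of each factor (vertical axes) in the Pi16/Dpp4, Fgf10/Enpp6/Mrap and Il6/Ptx3 subsets and the other APC-like cells, 1 point per library with its exact 95% Poisson interval. Pparg and Cebpa sit lowest in the Pi16/Dpp4 subset (0 to 3.43 and 17.5 to 19.8 CPM), whereas Ebf2 sits highest there (265 to 307 CPM).

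Among APC-like cells outside these subsets Pparg lay between the Pi16/Dpp4 and Fgf10/Enpp6/Mrap levels, at 9.40, 17.6, 14.4 and 17.6 CPM. Cebpa, which sustains Pparg and the mature fat cell program, followed the same order against the Pi16/Dpp4 subset. Its level was 17.6, 17.5 and 19.8 CPM in the Pi16/Dpp4 subset. It was 50.9, 58.8, 57.0 and 54.1 CPM in the Fgf10/Enpp6/Mrap subset and 66.2, 53.2, 32.5 and 57.5 CPM in the Il6/Ptx3 subset. The latter subsets overlapped with each other and not with the Pi16/Dpp4 subset.

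Cebpb, an early inducer of the cascade that is also driven by stress and inflammatory signals, was high in every subset and rose in steps. It measured 936, 1079 and 1079 CPM in Pi16/Dpp4 cells, 1300, 1354, 1015 and 1358 CPM in Fgf10/Enpp6/Mrap cells and 1592, 1667, 1555 and 1831 CPM in Il6/Ptx3 cells. The lowest Fgf10/Enpp6/Mrap library, CD45+ Tom+, lay within the Pi16/Dpp4 range, and the Il6/Ptx3 libraries overlapped with neither. Cebpd, the partner of Cebpb in the first wave, ranged over 347 to 498, 298 to 423 and 268 to 463 CPM in the Pi16/Dpp4, Fgf10/Enpp6/Mrap and Il6/Ptx3 subsets, which all overlapped.

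Ebf2, a factor that marks committed preadipocytes and favours brown and beige fat genes, was highest in the Pi16/Dpp4 subset. It was 307, 272 and 265 CPM in the Pi16/Dpp4 subset, 144, 177, 158 and 178 CPM in the Fgf10/Enpp6/Mrap subset, and 99.3, 93.9, 81.1 and 90.6 CPM in the Il6/Ptx3 subset. The ranges of the 3 subsets did not overlap. Its relative Ebf1, which induces Pparg and Cebpa in preadipocytes, varied less: 445 to 525 CPM, 540 to 581 CPM and 406 to 466 CPM in the same order. The Fgf10/Enpp6/Mrap range lay above the others without overlap, and those of the Pi16/Dpp4 and Il6/Ptx3 subsets overlapped.

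Zfp423, a zinc finger factor of preadipocyte commitment, was at 30.2, 16.8 and 19.0 CPM in Pi16/Dpp4 cells, 15.1 to 19.3 CPM in Fgf10/Enpp6/Mrap cells and 8.11 to 18.7 CPM in Il6/Ptx3 cells. Klf15, a late factor, was near the detection limit, at 1.61 to 7.55, 2.90 to 4.71 and 2.70 to 3.66 CPM. For both genes the 3 subsets overlapped.

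Subsets were tested with edgeR's quasi-likelihood test on counts summed per subset and library, with the library as a block and Benjamini-Hochberg adjustment over all genes tested. In the Fgf10/Enpp6/Mrap against the Pi16/Dpp4 subset, over the 3 libraries with at least 10 cells of each, 5 of 8 factors passed an adjusted p of 0.05 (4 higher, 1 lower), beside 27.9% of 11244 genes (13.6% higher, 14.3% lower, and 25.6% of the genes not used for clustering). Pparg was higher by 3.81 ± 0.25 (log2 fold change ± SE, edgeR adjusted p = 2.07e-08) and Cebpa by 1.59 ± 0.12 (edgeR adjusted p = 1.17e-07). Cebpb was higher by 0.37 ± 0.06 (edgeR adjusted p = 0.000192) and Ebf2 changed by -0.68 ± 0.09 (edgeR adjusted p = 3.19e-05). Ebf1 passed at 0.20 ± 0.07 (edgeR adjusted p = 0.0353), a call that was lost with DESeq2, without CD45- Tom- (edgeR adjusted p = 0.233) and without CD45+ Tom- (edgeR adjusted p = 0.314), and turned to a log2 fold change of -0.22 (edgeR adjusted p = 0.0492) when the factors and pathway genes were allowed among the clustering genes. Cebpd (0.03), Zfp423 (-0.05) and Klf15 (0.46) did not pass. Ebf2 missed the threshold at a finer clustering (log2 fold change -0.16, edgeR adjusted p = 0.118). The subsets were drawn from the same cells by other genes, so the p-values describe how regular the difference was over libraries and not an independent sort.

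Within single libraries the Pparg ratio of Fgf10/Enpp6/Mrap to Pi16/Dpp4 cells was 3.25 on the log2 scale (95% counting interval 2.39 to 4.26) in CD45- Tom- and 4.34 (3.21 to 5.79) in CD45+ Tom-. In CD45- Tom+, with 0 UMIs among 16 Pi16/Dpp4 cells, the lower limit was 1.81. Cebpa gave 1.53 (0.45 to 2.87), 1.75 (1.36 to 2.17) and 1.45 (1.11 to 1.81) in CD45- Tom+, CD45- Tom- and CD45+ Tom-. Every interval of both genes lay above 0.

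In the Il6/Ptx3 against the Pi16/Dpp4 subset 4 of 8 factors passed (3 higher, 1 lower), beside 25.6% of 11161 genes (14.5% higher, 11.1% lower). Pparg was higher by 3.12 ± 0.32 (edgeR adjusted p = 2.81e-06), Cebpa by 1.72 ± 0.13 (edgeR adjusted p = 1.82e-07) and Cebpb by 0.82 ± 0.08 (edgeR adjusted p = 1.34e-06). Ebf2 fell by 1.44 ± 0.09 on the log2 scale (edgeR adjusted p = 2.06e-08). This comparison shares its Pi16/Dpp4 cells with the one above. Cebpd, Zfp423, Ebf1 and Klf15 had log2 fold changes of 0.11, -0.35, -0.09 and 0.44 and did not pass, although Cebpd passed without the library CD45- Tom+ (0.31, edgeR adjusted p = 2.11e-05), as did Ebf1 (-0.17, edgeR adjusted p = 0.0311).

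Between the Il6/Ptx3 and the Fgf10/Enpp6/Mrap subset, over 4 libraries, 4 of 8 factors passed (1 higher, 3 lower), beside 17.5% of 11770 genes (10.1% higher, 7.47% lower). Cebpb was higher in Il6/Ptx3 cells by 0.49 ± 0.07 (edgeR adjusted p = 0.000214). Pparg fell by 0.71 ± 0.11 (edgeR adjusted p = 0.000329), Ebf2 by 0.79 ± 0.09 (edgeR adjusted p = 2.04e-05) and Ebf1 by 0.30 ± 0.07 (edgeR adjusted p = 0.00839) on the log2 scale. Ebf1 missed the threshold without CD45- Tom- (edgeR adjusted p = 0.192) or CD45+ Tom- (edgeR adjusted p = 0.119). Cebpa did not pass (0.07, edgeR adjusted p = 0.736), nor did Zfp423 (-0.35), Cebpd (0.01) or Klf15 (-0.09).

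Of 22 listed targets of PPARg, 14 could be tested between the Fgf10/Enpp6/Mrap and Pi16/Dpp4 subsets, and 8 were higher and 1 lower, beside 13.6% and 14.3% of all genes. The other 5 did not pass. The targets had a median log2 fold change of 1.20 beside 0.00 over all genes. Fabp4, a fatty acid carrier, was at 1384 to 1898 CPM against 37.7 to 65.4 CPM (4.80 ± 0.12). Lpl, which frees fatty acids from lipoproteins for uptake, was at 2960 to 4547 against 678 to 711 CPM (2.56 ± 0.06), and Cd36, a fatty acid transporter, was at 203 to 298 against 15.5 to 27.7 CPM (3.47 ± 0.11). Mgll, a lipase that completes triglyceride breakdown, was the target that fell, from 65.4 to 93.3 CPM in Pi16/Dpp4 cells to 0.759 to 3.54 CPM. Adipoq, the adipocyte hormone, reached at most 6.44 CPM in Fgf10/Enpp6/Mrap cells and 0.268 CPM in Pi16/Dpp4 cells.

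In the Il6/Ptx3 subset the same targets lay lower than in the Fgf10/Enpp6/Mrap subset, with 1 of 14 higher and 8 lower (median -0.98 beside -0.03 over all genes). Fabp4 was at 189 to 255 CPM there (log2 fold change -2.69 ± 0.10) and Lpl at 1331 to 2094 CPM (-1.11). Against the Pi16/Dpp4 subset 6 of 14 were higher and 1 lower (median 0.46). The lists were compiled with earlier results of these data known and are given as counts.

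Of 17 other adipogenic regulators, 15 could be tested, and 5 were higher and 1 lower in Fgf10/Enpp6/Mrap than in Pi16/Dpp4 cells (median 0.25), beside 13.6% and 14.3% of all genes. Klf4, which acts ahead of Cebpb, was the one that fell, from 2539 to 3108 CPM to 1918 to 2067 CPM (log2 fold change -0.49). Nr1h3, a lipid-sensing nuclear receptor, rose by 0.84 on the log2 scale (16.7 to 30.9 against 15.3 to 19.0 CPM). Ppargc1a, a coactivator of PPARg, was at 6.84 to 11.3 CPM in Fgf10/Enpp6/Mrap cells and at 0.268 CPM at most in Pi16/Dpp4 cells. It reached 18.7 CPM in Il6/Ptx3 cells and was at 10.9 to 40.7 CPM in APC-like cells outside the subsets. In Il6/Ptx3 cells 6 of 15 were higher and 1 lower than in Pi16/Dpp4 cells (median 0.17), and 2 were higher and 2 lower than in Fgf10/Enpp6/Mrap cells (median -0.08).

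Inhibitors of adipogenesis moved both ways. Of 24 listed, 22 could be tested between the Fgf10/Enpp6/Mrap and Pi16/Dpp4 subsets, where 13 were higher and 7 lower (median 0.37). Wnt10b, a secreted inhibitor, was at 17.6 to 24.1 CPM in Pi16/Dpp4 cells and at 0.423 CPM at most in Fgf10/Enpp6/Mrap cells. Gata2 changed by -2.11, Sox9 by -1.33 and Zfp521, an antagonist of Zfp423 and Ebf1, by -0.97 on the log2 scale, whereas Runx2 rose by 2.50, from 3.74 to 7.55 CPM to 24.2 to 34.2 CPM, and Runx1 by 1.48. In Il6/Ptx3 cells 12 of 22 were higher and 5 lower than in Pi16/Dpp4 cells (median 0.41), and 6 of 21 were higher and 7 lower than in Fgf10/Enpp6/Mrap cells (median -0.05). There Sox9 was higher by 2.01 and Gata2 by 1.83.

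Immediate early and heat shock genes induced by tissue digestion, a response in which Cebpb can take part, were followed beside the factors. Of 16 such genes 10 were higher and 6 lower in Fgf10/Enpp6/Mrap than in Pi16/Dpp4 cells (median 0.37), and 12 were higher and 2 lower in Il6/Ptx3 than in Pi16/Dpp4 cells (median 0.51). Between Il6/Ptx3 and Fgf10/Enpp6/Mrap cells 6 were higher and 3 lower (median 0.14). Their part in the Cebpb differences was not tested.

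Across the named cell classes each factor had its own distribution. All 8 had a highest named class whose libraries did not overlap with the next, beside 41.7% of 13818 genes. Pparg was highest not in progenitors but in blood endothelial-like cells, at 148, 199, 123 and 151 CPM. Monocyte-like cells followed at 31.5 to 59.9 CPM in 3 libraries. Macrophage-like cells (21.9 to 24.5 CPM), APC-like cells (17.5 to 23.1 CPM) and lymphatic endothelial-like cells (16.6 and 18.0 CPM in the 2 Tom+ libraries) then overlapped with one another. The next class in order, dendritic-like cells, overlapped with all 3, and mesothelial-like, plasma cell-like, B cell-like and T cell-like cells stayed at 5.64 CPM or lower.

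**Figure D2:**
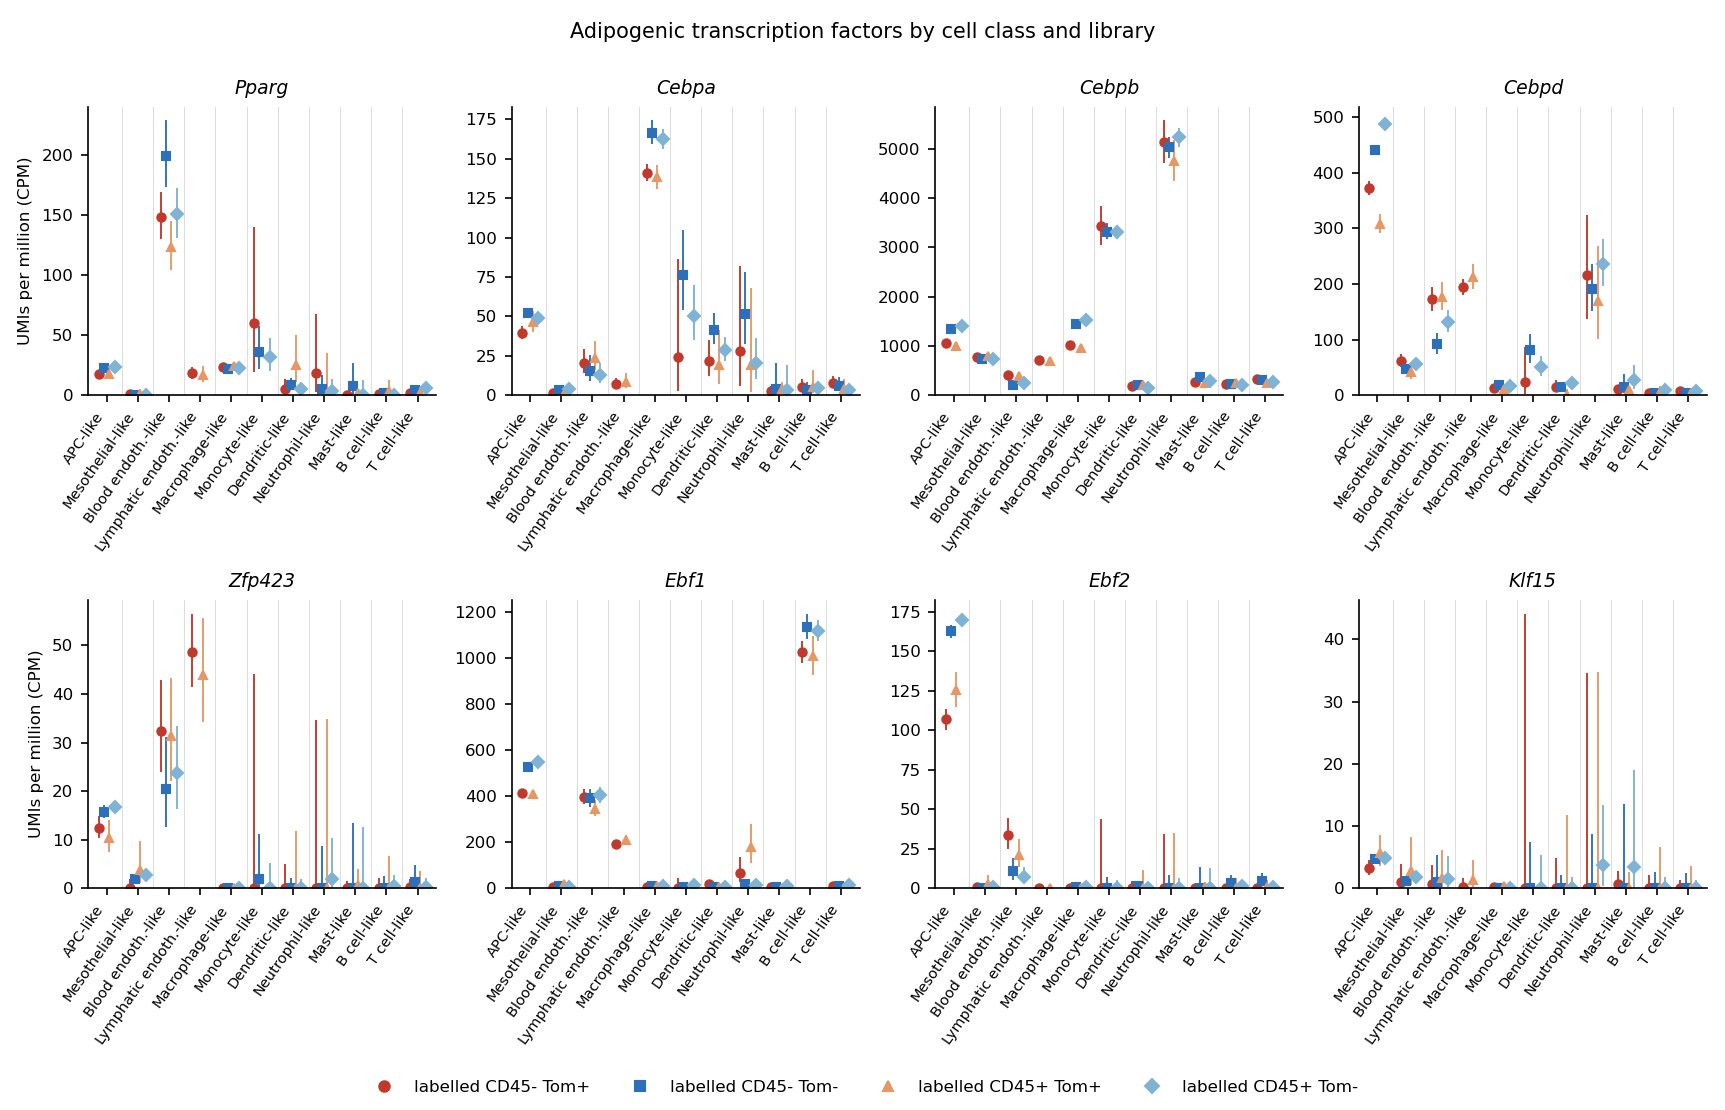
CPM of each factor (vertical axes) in the larger cell classes, 1 point per library of at least 10 cells with its exact 95% Poisson interval. Pparg is highest in blood endothelial-like cells (123 to 199 CPM), Cebpa in macrophage-like cells (138 to 167 CPM), Ebf1 in B cell-like cells (1007 to 1134 CPM), and Ebf2 and Cebpd in APC-like cells.

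The blood endothelial-like cluster (98, 114, 97 and 145 cells) also raised 4 markers of mural cells, the contractile cells that wrap vessels, so it was split by them after its values were seen. Cells with no mural UMI held Pparg at 76.7, 179, 66.8 and 157 CPM and cells with at least 2 mural UMIs at 196, 230, 166 and 135 CPM. Measured Pparg was thus above that of every other class in both portions. In the Tom+ portions with no mural UMI it rested on 42 and 31 UMIs. Their 95% intervals, 55.3 to 104 and 45.4 to 94.8 CPM, held the highest monocyte-like value of 59.9 CPM. The summed adipocyte markers Adipoq, Plin1, Cidec and Lep were at 82.8, 694, 122 and 53.3 CPM in the whole cluster. The 694 CPM in CD45- Tom- were mostly Lep, at 629.9 CPM, whereas Adipoq was at 23.8 to 54.2 CPM over the libraries. The part of these markers in the Pparg level was not tested. When doublets were kept this cluster raised 5 mural markers and lost its name, and Pparg in its cells was at 156 to 195 CPM.

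**Figure D3:**
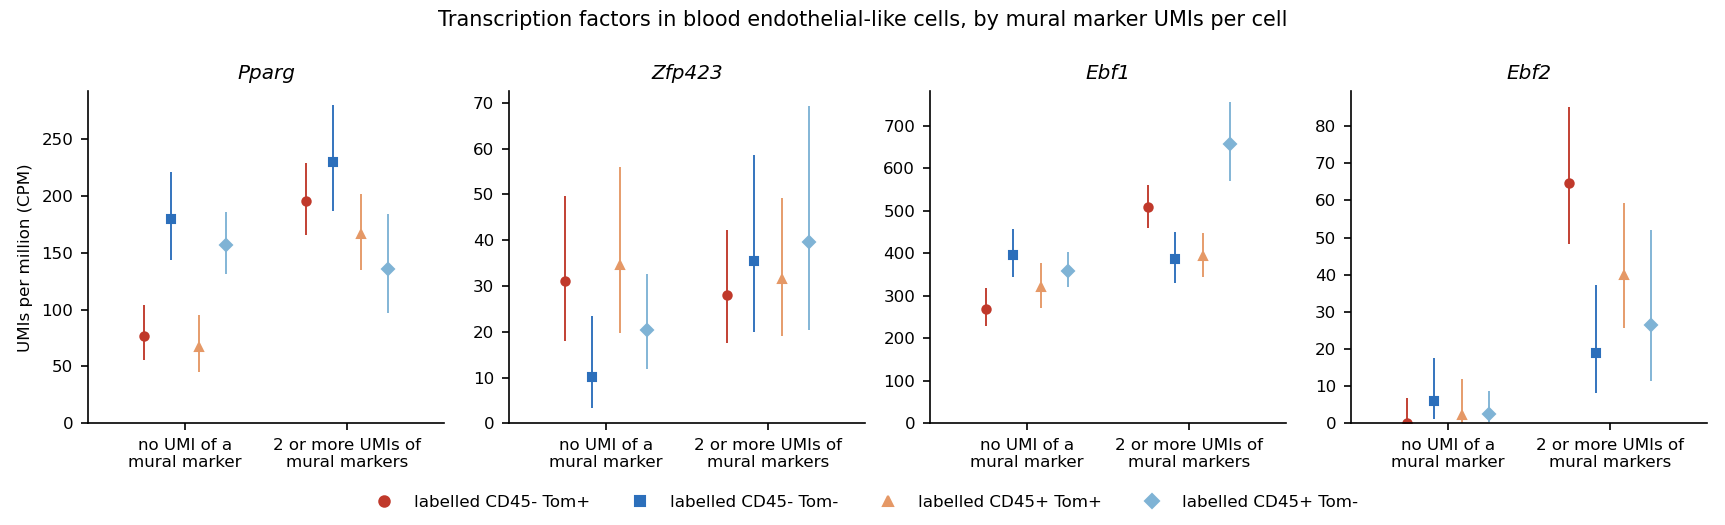
CPM of Pparg, Ebf1, Ebf2 and Zfp423 in blood endothelial-like cells with no mural marker UMI and with at least 2, 1 point per library with its exact 95% Poisson interval. Pparg and Ebf1 are found in both portions, whereas Ebf2 is at 18.9 to 64.8 CPM in cells with mural UMIs and rests on 0 to 3 UMIs per library in the others.

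Ebf2 was found in few classes. It was at 107, 163, 125 and 170 CPM in APC-like cells and at 33.8, 10.7, 21.2 and 7.20 CPM in blood endothelial-like cells. No other named class exceeded 4.59 CPM in any library. Cluster 25, unnamed because it raised both mesothelial and APC markers, held Ebf2 at 22.2 CPM in its 45 cells of CD45+ Tom+. In the blood endothelial-like cluster 51, 8, 24 and 8 Ebf2 UMIs came from cells with at least 2 mural UMIs, and 0, 3, 1 and 2 from cells with none. Mesothelial-like cells, which share Dcn and other matrix genes with APC-like cells, held Ebf2 at 0.532, 0.174, 2.84 and 0.742 CPM.

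Ebf1, in contrast, marked several lineages. It was highest in B cell-like cells, where it specifies the lineage, at 1024, 1134, 1007 and 1116 CPM. APC-like cells followed at 415, 528, 408 and 548 CPM, blood endothelial-like cells at 396, 390, 346 and 404 CPM and lymphatic endothelial-like cells at 193 and 209 CPM. These ranges did not overlap, although APC-like and blood endothelial-like cells were separated by only 408 against 404 CPM. Plasma cell-like cells, which descend from B cells, held 28.6 to 38.7 CPM.

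Zfp423 was highest in lymphatic endothelial-like cells, at 48.6 and 43.9 CPM in the 2 Tom+ libraries, then in blood endothelial-like cells at 20.4 to 32.5 CPM and in APC-like cells at 10.3 to 16.7 CPM. The 3 ranges did not overlap, and the next class, mesothelial-like cells, reached 3.79 CPM. Lymphatic endothelial-like cells were found in the Tom+ libraries (178 and 86 cells) and hardly in the Tom- libraries (1 and 0 cells), so the Zfp423 level in that class has no Tom- counterpart.

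Cebpd was highest in APC-like cells, at 372, 440, 308 and 487 CPM. Lymphatic endothelial-like (194 and 213 CPM), neutrophil-like (170 to 236 CPM) and blood endothelial-like cells (91.4 to 177 CPM) followed, each overlapping with the next. Macrophage-like cells held 11.1 to 17.4 CPM. Klf15 was at 13.3 and 30.9 CPM in epithelial-like cells, from 28 cells in the Tom+ libraries, a cluster led by Gpx5, Spag11b and Defb20. It was at 3.26 to 5.66 CPM in APC-like cells and did not exceed 3.69 CPM in any other class. With cells thinned to 2000 UMIs, 0% of epithelial-like cells held a Klf15 UMI and APC-like cells were the highest class.

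Cebpb was highest in neutrophil-like cells, at 5128, 5026, 4741 and 5225 CPM, and then in monocyte-like cells at 3308 to 3423 CPM, which did not overlap. Macrophage-like and APC-like cells overlapped, at 965 to 1519 and 992 to 1411 CPM, and the lowest class, plasma cell-like cells, still held 139 to 187 CPM. Cebpa, the myeloid and adipocyte factor, was highest in macrophage-like cells, at 141, 167, 138 and 162 CPM, followed by monocyte-like cells at 23.9 to 76.4 CPM and APC-like cells at 39.5 to 52.3 CPM, and the last 2 overlapped.

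APC-like and macrophage-like cells were compared directly over the 4 libraries, where 6 of 8 factors passed (5 higher and 1 lower in APC-like cells), beside 76.8% of 13900 genes (40.4% higher, 36.4% lower). Cebpa was lower in APC-like cells, with a log2 fold change of -1.65 ± 0.06 (edgeR adjusted p = 3.95e-06). Cebpd was higher by 4.84 ± 0.08 and Ebf1 by 5.75 ± 0.12 (edgeR adjusted p = 1.18e-06 for both). Pparg (-0.13, edgeR adjusted p = 0.331) and Cebpb (0.03, edgeR adjusted p = 0.739) did not pass. In single libraries Pparg was lower in APC-like cells in the Tom+ libraries, by log2 ratios of -0.43 (95% counting interval -0.69 to -0.17) and -0.49 (-0.89 to -0.10), while the Tom- libraries gave 0.06 (-0.14 to 0.28) and 0.05 (-0.13 to 0.23).

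Zfp423, Ebf2 and Klf15 were higher in APC-like cells as well, with edgeR adjusted p of 6.25e-06, 3.43e-06 and 2.26e-05. Macrophage-like cells held 2, 1, 0 and 0 UMIs of Zfp423 and 3, 1, 3 and 2 of Klf15, so the size of those differences is not given. Ebf2, with 3, 10, 1 and 14 UMIs there, stood at 0.150, 0.895, 0.105 and 0.904 CPM. The Ebf2 level of APC-like cells, scaled by the ratio of Dcn (a matrix gene of APC-like cells) in macrophage-like to APC-like cells, gave 0.383, 1.45, 0.652 and 1.52 CPM, above the measured level in every library.

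Between clusters 4 and 3 of the macrophage-like cells, Pparg and Cebpb were arranged in opposite ways. Cluster 4, led by Gpnmb, Atp6v0d2 and Mmp12, held Pparg at 32.8, 36.4, 34.7 and 33.4 CPM, and cluster 3, led by Arg1, Cd5l and Chil3, held it at 8.95, 13.6, 13.7 and 17.3 CPM. Cebpb was at 669, 654, 662 and 620 CPM in cluster 4 and at 1847, 1955, 1797 and 2150 CPM in cluster 3. The ranges did not overlap for either gene, beside 22.8% of 8869 genes that were higher and 30.7% that were lower in cluster 4 without overlap. Cebpa was more even over these and cluster 13, at 131 to 147 CPM in cluster 4, 165 to 176 in cluster 3 and 139 to 212 in cluster 13. Cluster 13, led by Marco and Vsig4, held Pparg at 6.95 to 12.2 CPM and Cebpb at 1302 to 1666 CPM. Cluster 24, led by Cenpf, Cd5l and Birc5, had at least 10 cells in 3 libraries. It held Pparg at 11.6 to 20.7, Cebpb at 464 to 913 and Cebpa at 54.1 to 92.4 CPM, the lowest Cebpa of these clusters. Clusters came from the same cells, so these contrasts are descriptions.

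**Figure D4:**
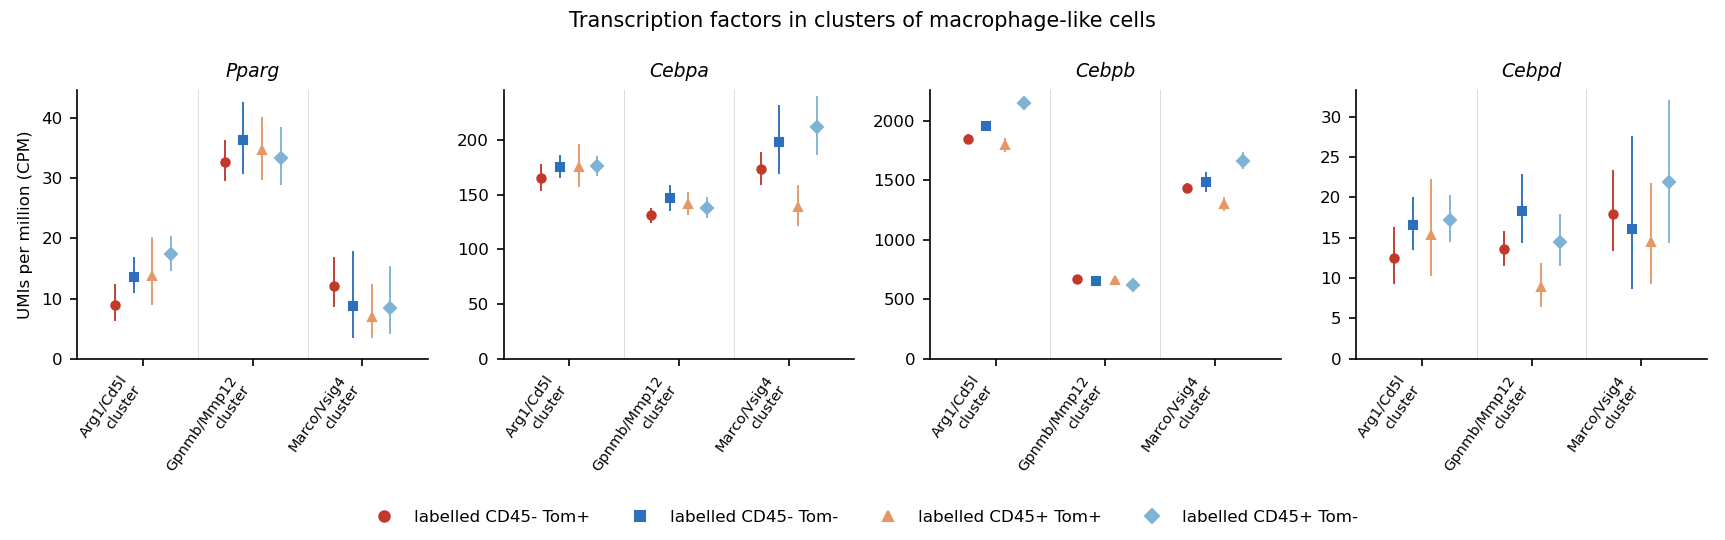
CPM of Pparg, Cebpa, Cebpb and Cebpd in cluster 3 (Arg1/Cd5l), cluster 4 (Gpnmb/Mmp12) and cluster 13 (Marco/Vsig4) of macrophage-like cells, 1 point per library with its exact 95% Poisson interval. Among the clusters shown, Pparg is highest in cluster 4 (32.8 to 36.4 CPM), where Cebpb is lowest (620 to 669 CPM).

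The Tom+ and Tom- libraries, the comparison by p16 reporter, were set side by side within a class and within each CD45 label, with no test because each group has 1 library. In APC-like cells Pparg was at 17.6 CPM in CD45- Tom+ and 22.9 CPM in CD45- Tom-, and at 17.5 CPM in CD45+ Tom+ and 23.1 CPM in CD45+ Tom-. The log2 ratios of Tom+ to Tom- were -0.38 (95% counting interval -0.62 to -0.13) and -0.40 (-0.77 to -0.05). Ratios of Cebpb were -0.35 and -0.51, of Cebpd -0.24 and -0.66, of Ebf1 -0.35 and -0.43, of Ebf2 -0.60 and -0.44, and of Zfp423 -0.35 and -0.69. Cebpa gave -0.41 (-0.57 to -0.24) and -0.07 (-0.30 to 0.14), and Klf15, on 31 and 23 UMIs in the Tom+ libraries, -0.55 (-1.16 to 0.01) and 0.22 (-0.47 to 0.85).

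Of the 7 factors that averaged at least 5 CPM over the libraries of each pair, 0 were 1.5-fold lower or higher in both pairs. Over all 9617 genes that averaged as much, 2.61% were lower and 2.08% were higher in Tom+. The median of all genes in these cells was itself below 0, at -0.27 and -0.24. The counting intervals of Pparg held it in both pairs, whereas those of Cebpb, Ebf1 and Ebf2 (-0.70 to -0.51 and -0.57 to -0.31 for Ebf2) lay below it in both. That of Cebpd (-0.74 to -0.58) lay below it in the CD45+ pair, and that of Zfp423 there (-1.18 to -0.24) ended at it. Immunoglobulin genes made up 14.5% and 14.2% of the UMIs of APC-like cells in the Tom+ libraries and 0.197% and 0.203% in the Tom- libraries, and 1 APC-like cluster of 113 cells raised 4 plasma cell markers. Dissociation stress genes, summed, were at 28149, 32189, 29334 and 32506 CPM in APC-like cells. The totals behind these CPM include the immunoglobulin UMIs, so the lower Tom+ sums cannot be read as a lower stress response. The part of the stress genes and of immunoglobulins in the ratios was not tested. The Tom+ libraries held 21.4% and 22.2% plasma cell-like cells and the Tom- libraries 1.06% and 1.30%.

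Without that cluster the median of all genes moved to -0.03 and -0.04, and Pparg to 0.09 and -0.13. Cebpb then had ratios of -0.06 and -0.35, Cebpd of 0.09 and -0.36, and Ebf2 of -0.15 and -0.07. With immunoglobulin genes left out of the totals, the median of all genes was -0.05 and -0.02. Pparg then had ratios of -0.15 and -0.18, and Cebpa of -0.18 and 0.14. Both settings were chosen after seeing the data.

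**Figure D5:**
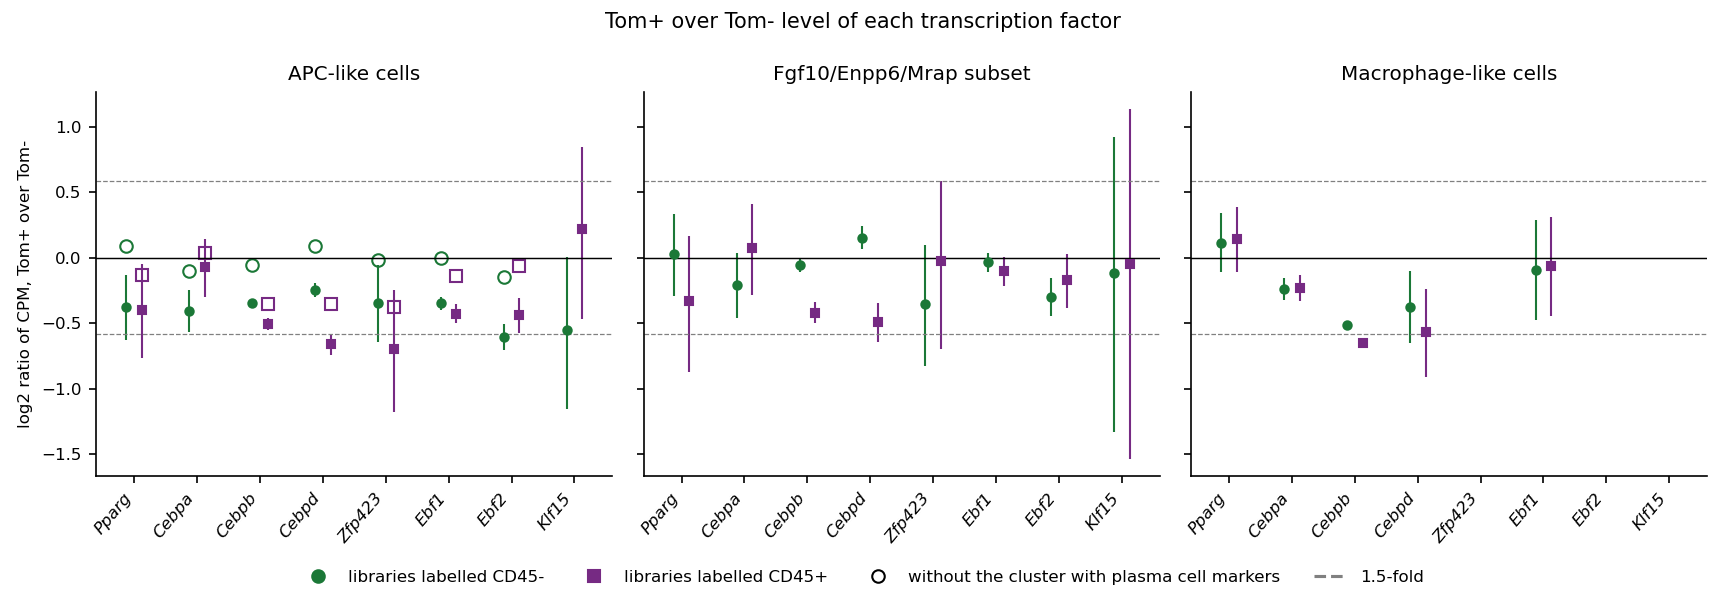
Log2 ratio of Tom+ to Tom- CPM (vertical axis) for each factor in APC-like cells, the Fgf10/Enpp6/Mrap subset and macrophage-like cells, for the pairs labelled CD45- and CD45+, with exact 95% counting intervals, dashed lines at 1.5-fold and open symbols without the cluster with plasma cell markers. In APC-like cells the ratios of Pparg move from -0.38 and -0.40 to 0.09 and -0.13 without that cluster.

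Within the Fgf10/Enpp6/Mrap subset, the APC-like subset with the highest Pparg, the CD45- and CD45+ pairs differed for several factors. Pparg was at 33.2 against 32.5 CPM in the CD45- pair (log2 ratio 0.03, -0.29 to 0.34) and at 25.8 against 32.5 CPM in the CD45+ pair (-0.33, -0.87 to 0.17). Cebpa gave -0.21 (-0.46 to 0.04) and 0.07 (-0.28 to 0.41). Ebf2 was lower in the CD45- pair (-0.30, -0.45 to -0.15) and its interval in the CD45+ pair reached 0.03 (-0.17, -0.38 to 0.03). Cebpb gave -0.06 (-0.11 to -0.01) and -0.42 (-0.50 to -0.34). Cebpd had ratios of opposite sign in the pairs, 0.15 (0.06 to 0.24) and -0.49 (-0.64 to -0.34). Of 7 factors 0 were 1.5-fold lower or higher in both pairs, beside 0.681% and 0.943% of 9545 genes.

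Among the APC-like cells outside the 3 subsets, Cebpd (-0.66 and -0.94), Ebf1 (-0.71 and -0.73) and Ebf2 (-1.01 and -0.74) were at least 1.5-fold lower in Tom+ in both pairs, 3 of 8 factors beside 23.5% of 9489 genes, and 0 were higher beside 3.3%. The median of all genes there was -0.52 and -0.43, and these cells include the cluster with plasma cell markers.

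The mix of APC-like cells was counted beside these levels. Cells outside the 3 subsets, which include the cluster with plasma cell markers, were 176 of 338 and 69 of 131 APC-like cells in the Tom+ libraries and 640 of 1540 and 717 of 1721 in the Tom- libraries. Fgf10/Enpp6/Mrap cells were 122 of 338 and 45 of 131 APC-like cells in the Tom+ libraries and 586 of 1540 and 678 of 1721 in the Tom- libraries. Pi16/Dpp4 cells were 16 of 338 and 4 of 131 against 125 of 1540 and 139 of 1721.

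In macrophage-like cells 0 of 5 factors averaging at least 5 CPM in each pair were 1.5-fold lower or higher in Tom+ in both pairs. Of 8843 genes 2.78% were lower and 2.32% were higher. Cebpb was nearest, at 1008 against 1438 CPM (log2 ratio -0.51) and 965 against 1519 CPM (-0.65). Within cluster 3 the Cebpb ratios were -0.08 and -0.26, and within cluster 4 they were 0.03 and 0.09. Cluster 3, with the higher Cebpb, was 192 of 800 and 99 of 417 macrophage-like cells in Tom+ and 353 of 574 and 439 of 746 in Tom-. Pparg gave ratios of 0.11 and 0.14 and Cebpa of -0.24 and -0.23.

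The genes whose levels ran most like each factor were found by Pearson's r of log2(CPM + 1) over 45 points. Each point was 1 of 17 named classes or unnamed clusters in 1 library with at least 50 cells. APC-like subsets and macrophage clusters were not separate points. The points share libraries, and r is given as a description. Pparg was closest to Eng (r = 0.90), Cd36 (0.89) and Cd300lg (0.87). Cebpa ran with Psap (0.91) and Plin2 (0.91), and Cebpb with Prdx5 (0.91), Grina (0.88) and Tmem38b (0.88). Ebf2 ran with Ccl11 (0.92), Adh1 (0.91) and Pcdh19 (0.91), and Cebpd with Lbp (0.87), Lamb1 (0.87) and Fbln5 (0.86). Zfp423 ran with Tril (0.93), Ldb2 (0.93) and Prex2 (0.92). Klf15 had Mfap2 (0.86), Adm (0.86) and Cygb (0.84) nearest, and Ebf1 the weakest match, Snn (0.76), Tcf4 (0.75) and Fam43a (0.74).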

How the data were processed

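The authors prepared 10x Genomics Chromium 3′ libraries from sorted stromal vascular cells and processed them with Cell Ranger 3.0.2 against mm10, as given in their processing notes. They deposited, for each library, a matrix of whole-number UMI counts per gene and barcode, without normalization. The rest was computed here from these counts.

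Following the study, barcodes passed where they held over 1000 but fewer than 7000 genes, with mitochondrial UMIs below 8%, which left 4145, 4038, 1981 and 4818. Scrublet in scanpy 1.11.5 scored doublets, and the highest-scoring 0.8% per 1000 barcodes (259, 364, 54 and 427 cells) were removed. The libraries were clustered together by Leiden at resolution 1 (leidenalg 0.10.2, igraph 0.11.9) on a graph of 15 neighbours in 30 principal components of 2000 variable genes, without batch integration. The 8 factors and the 4 gene lists (other adipogenic regulators, inhibitors of adipogenesis, PPARg targets and dissociation stress genes) were kept out of the clustering genes. Of 28 clusters 23 took 1 of 14 class names from marker genes. A marker counted as raised at 20 CPM and 4 times the median over clusters, and a name needed at least 3. These thresholds were set after seeing the data. The members, markers and lists were chosen with earlier results of these data known. The study tested single cells, which are not replicates, so subsets were compared instead with edgeR 4.0.16 (R 4.3.3, limma 3.58.1) on counts summed per subset and library of at least 10 cells, with TMM scaling, edgeR's filter on low counts and the library as a block. Cell classes pair by library because their cells went through the same reactions. The 4 libraries are 1 per group, so p-values measure spread between libraries labelled as different sorts. The CD45 labels did not part the classes, and libraries shared barcodes, so the libraries may not be independent samples. The p-values assume that they are. The edgeR step was tested on simulated counts.

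CPM carry exact Poisson intervals, shares exact Clopper-Pearson intervals and Tom+ to Tom- ratios conditional exact intervals, all at 95% and all for counting error only. The floor for a count of 0 was set at 3 counts. Genes named are the 8 factors, genes of the lists and, for each factor, the 3 genes with the highest r among those of at least 20 CPM on average, leaving out predicted and ribosomal protein genes. One gene named by this rule is not reported here. Alternatives were other barcode, doublet and clustering settings, DESeq2 1.42.0, no filter on low counts, no block, each library left out, cells thinned to 2000 UMIs and shared barcodes left out. Gene positions are from GENCODE vM21 and promoters from RefSeq. Protein sequences were not used here.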

Additional observations from a re-analysis of the deposited data

Results flagged for a closer look

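Cebpb, Cebpd and Ebf2 were flagged for Tom+ to Tom- log2 ratios of opposite sign in APC-like and blood endothelial-like cells. The signs held in both pairs, and every 95% counting interval kept its sign. Zfp423 (-0.35 and -0.69 against 0.67 and 0.40) and Cebpa (-0.41 and -0.07 against 0.40 and 0.87) had the same signs. Their intervals in blood endothelial-like cells reached the other sign. The share of all genes with these signs was not counted, and the all-gene median in APC-like cells was -0.27 and -0.24. The difference between classes was not tested, since each group has 1 library. Cebpb had ratios of -0.35 and -0.51 in APC-like cells (CD45- and CD45+ pair), -0.51 and -0.65 in macrophage-like cells, and 0.95 and 0.62 in blood endothelial-like cells. Cebpd had ratios of -0.24 and -0.66 in APC-like cells, -0.38 and -0.57 in macrophage-like cells, and 0.91 and 0.43 in blood endothelial-like cells. Ebf2 had ratios of -0.60 and -0.44 in APC-like cells and 1.66 and 1.56 in blood endothelial-like cells, the latter from 51 against 11 and 25 against 10 UMIs. Without the APC-like cluster with plasma cell markers, a setting chosen after seeing the data, the ratios in APC-like cells were 0.09 and -0.36 for Cebpd, so that the pairs no longer shared a sign, -0.15 and -0.07 for Ebf2 and -0.06 and -0.35 for Cebpb.

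Mural marker genes, summed, were at 847 and 586 CPM in the blood endothelial-like cells of the Tom+ libraries and at 523 and 269 CPM in those of the Tom- libraries. Immunoglobulin genes made up 14.5% and 14.2% of the UMIs of Tom+ APC-like cells. The part of either in these ratios was not tested.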

How the results depend on the processing

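Pparg was higher in Fgf10/Enpp6/Mrap than in Pi16/Dpp4 cells, past the threshold, in each alternative that could test it, with log2 fold changes from 3.32 (looser barcode filter) to 4.47 (without CD45- Tom-), and it was too sparse to be tested in thinned cells. Cebpa passed in each too, from 1.31 (thinned) to 2.06 (doublets kept). The number of genes called moved by over 1.5 times under some settings. Between the Fgf10/Enpp6/Mrap and Pi16/Dpp4 subsets it was 3137, 1799 with DESeq2 and 977 with cells thinned to 2000 UMIs. With 1 library left out it ranged from 1577 (without CD45+ Tom-) to 3530, and was 1785 without CD45- Tom-. Between the Il6/Ptx3 and Pi16/Dpp4 subsets it was 2852, 1375 with DESeq2, 795 thinned and 1247 to 3792 with 1 library left out (1292 without CD45- Tom-, 1247 without CD45+ Tom-). Between the Il6/Ptx3 and Fgf10/Enpp6/Mrap subsets it was 2064, 3602 with 4000 variable genes, 527 thinned and 892 to 2305 with 1 library left out (892 without CD45- Tom-, 949 without CD45+ Tom-). Between APC-like and macrophage-like cells it was 10674 and 6760 thinned. Thinning tested fewer genes. With thinned cells 3 of 5 factors tested passed between the Fgf10/Enpp6/Mrap and Pi16/Dpp4 subsets. Between the Il6/Ptx3 and Fgf10/Enpp6/Mrap subsets 1 of 6 passed with thinned cells. With 4000 variable genes 7 of 8 passed between the Il6/Ptx3 and Pi16/Dpp4 subsets. The share of all genes that passed in the same setting is not set beside these 3 counts, so they do not show whether the factors stood out.

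Ebf1 in the Fgf10/Enpp6/Mrap against the Pi16/Dpp4 subset turned negative in 4 settings. Its log2 fold change was -0.16 with the looser barcode filter (500 genes, 20% mitochondrial UMIs), -0.080 with doublets kept, -0.066 with 4000 variable genes and -0.22 with the factors among the clustering genes, and the cause was not tested. Ebf2 there was -0.38 with thinned cells (edgeR adjusted p = 0.0640).

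The subsets were paired by library through the block. Without the library block 2701 genes and 4 factors passed between the Fgf10/Enpp6/Mrap and Pi16/Dpp4 subsets, and Ebf1 missed the threshold (edgeR adjusted p = 0.0687), while the calls of the other factors did not change in the 4 comparisons. Subsets taken cell by cell gave too few cells for a fit, and the Il6/Ptx3 subset was not found with doublets kept, with the looser filter or with the factors among the clustering genes. The highest class held for 7 of 8 factors with thinned cells (all but Klf15) and for 6 of 8 with doublets kept (all but Pparg and Zfp423). Depth limited Klf15, and Pparg in Pi16/Dpp4 cells.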
